A study of Mus musculus with 28 samples.

Results

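Early transcription in response to bacterial lipopolysaccharide (LPS) was examined in murine bone marrow-derived macrophages (BMDMs), the cells that grow out of bone marrow in the presence of M-CSF. Of 28 cultures in the RNAseq series, 9 form this comparison: 4 cultures given LPS at 100 ng/ml and 5 control cultures given PBS, all harvested after 3.5 h. The control and LPS-treated cultures alike came from marrow of C57/B6JB mice of 8 to 12 weeks that carried no named allele, were grown for 7 days, and were washed and given fresh medium with 1 mM CaCl2 before treatment. This age is the one the study gives for its marrow cultures, whereas its general statement on murine experiments gives a younger range. The labels call the cultures biological replicates without saying whether each came from a separate animal, so the p values below measure the spread between these cultures. The other arms of the series used here are 5 cultures given plasma-derived von Willebrand factor (VWF) at 10 µg/ml for 3.5 h, and 4 LPS-treated and 5 control cultures harvested at 16 h.

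LPS, a component of the outer membrane of Gram-negative bacteria, is bound by CD14 and MD-2 and signals through Toll-like receptor 4 (TLR4). From the cell surface, TLR4 engages MyD88 and releases NF-κB and MAP kinase signalling, which drive cytokine and chemokine genes and their own inhibitors. From endosomes it engages TRIF, which activates IRF3 and the gene of interferon-β. Secreted interferon-β then acts on the same cells through its receptor and switches on the interferon-stimulated genes.

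The promoters of 5 genes of this response are shown with the letters of NF-κB-type and interferon-type motifs in capitals. The motif letters searched on both strands were GGNNTTTCC or its reverse GGAAANNCC (NF-κB-type) and GAAANNGAA or its reverse TTCNNTTTC (the interferon-stimulated response element, ISRE-type), and overlapping matches run together. Each sequence holds the 200 bases before the RefSeq start site, read 5′ to 3′ on the strand of the gene (RefSeq, GRCm38.p6). Among called genes of the functional lists, Cxcl9 and Cxcl1 had the most NF-κB-type matches, Ifit1 and Isg15 had the most ISRE-type matches, and Lpar6 was one of the genes with the largest falls.
Cxcl9, chr5:92328080-92328279, minus strand: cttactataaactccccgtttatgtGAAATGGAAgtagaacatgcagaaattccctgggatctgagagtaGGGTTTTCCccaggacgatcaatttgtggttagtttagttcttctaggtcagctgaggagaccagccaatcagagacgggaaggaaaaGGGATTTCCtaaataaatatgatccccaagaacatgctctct
Cxcl1, chr5:90891045-90891244, plus strand: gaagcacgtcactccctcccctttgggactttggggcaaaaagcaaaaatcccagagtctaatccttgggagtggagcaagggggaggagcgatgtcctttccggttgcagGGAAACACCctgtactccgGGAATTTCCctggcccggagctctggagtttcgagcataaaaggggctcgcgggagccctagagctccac
Ifit1, chr19:34640689-34640888, plus strand: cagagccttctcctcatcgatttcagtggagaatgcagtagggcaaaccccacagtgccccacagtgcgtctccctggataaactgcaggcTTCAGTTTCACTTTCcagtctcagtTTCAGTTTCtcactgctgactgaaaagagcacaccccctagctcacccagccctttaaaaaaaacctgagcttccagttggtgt
Isg15, chr4:156200819-156201018, minus strand: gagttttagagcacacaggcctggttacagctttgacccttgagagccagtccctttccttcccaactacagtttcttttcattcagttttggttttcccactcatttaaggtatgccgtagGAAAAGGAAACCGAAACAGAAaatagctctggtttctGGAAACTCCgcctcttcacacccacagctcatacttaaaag
Lpar6, chr14:73237691-73237890, plus strand: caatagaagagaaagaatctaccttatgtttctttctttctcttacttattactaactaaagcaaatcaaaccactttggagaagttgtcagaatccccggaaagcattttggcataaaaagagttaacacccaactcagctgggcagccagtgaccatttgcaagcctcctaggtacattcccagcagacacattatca
The NF-κB-type match farthest from the start lay 130 bases before it in Cxcl9, which also held 1 ISRE-type match, and 89 bases before it in Cxcl1. The farthest ISRE-type match lay 109 bases before the start in Ifit1 and 78 bases before it in Isg15, which also held 1 NF-κB-type match. Neither set of letters was found in the window of Lpar6. A match describes the letters only and is not evidence of a bound factor.

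Between 41131209 and 63616318 reads were counted per control culture, and between 46387725 and 49934029 per LPS-treated culture. Macrophage markers were present in both groups, with a summed level of 7639 to 10805 RPKM (reads per exon length and library size, scaled by TMM factors) in control and 7532 to 11344 RPKM in LPS-treated cultures over 12 markers. Fcgr1 and Cd14 were called higher among these 12, and none was called lower. Markers of T and NK cells summed to 1.43 to 2.75 RPKM in control and 11.4 to 20.2 RPKM in LPS-treated cultures, of which Lck made up 0.148 ± 0.0178 RPKM (SD, n = 5) and 14.7 ± 3.50 RPKM (SD, n = 4). Of the 10 markers in this list, 9 were under the filter in every culture, and only Lck was tested. Cd3g and Cd8a were at 0 in control cultures, and Cd3g was at 0 in LPS-treated cultures. These zeros do not stand for the whole list, because members other than Lck made up most of the control sum. The dendritic cell list, at 225 to 461 and 841 to 1289 RPKM, had 2 members tested, both called higher, and consisted mostly of Bst2, itself an interferon-stimulated gene. The other, the defining marker Xcr1, rose from 0.111 ± 0.0369 RPKM to 5.08 ± 0.470 RPKM. Neutrophil markers summed to 6.74 to 19.1 and 15.6 to 41.6 RPKM, and erythroid and platelet markers, mostly Pf4, to 443 to 1147 and 1308 to 1797 RPKM. B cell markers summed to 24.8 to 31.5 RPKM in control and 21.0 to 24.3 RPKM in LPS-treated cultures. Markers of stroma and endothelium summed to 48.2 to 192 and 52.9 to 204 RPKM. The part of these cells in the results was not tested, and in bulk cultures fewer cells of a type cannot be told apart from less RNA per cell.

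LPS changed the level of 2010 of 8190 tested genes within 3.5 h, which is 24.5% of them. Of these, 1047 were higher (12.8%) and 963 were lower (11.8%) than in control cultures. A gene was called at an adjusted p under 0.05 and an absolute log2 fold change of at least 1, with edgeR's quasi-likelihood test and Benjamini-Hochberg adjustment over all tested genes. Rises were steeper than falls: 524 genes rose by more than 2 on the log2 scale and 251 fell by more than 2, whereas 121 rose and 7 fell by more than 5. The groups did not overlap, with every LPS-treated culture above or below every control culture, for 1023 of the higher and 931 of the lower genes. Among all tested genes such a separation was seen with LPS above in 26.1% and with LPS below in 30.2%. The split between higher and lower depended on scaling. With library size alone in place of TMM factors, which lay at 1.14 to 1.22 in control and 0.798 to 0.846 in LPS-treated cultures, the median log2 fold change of all genes moved from −0.02 to −0.54. The calls then numbered 708 higher and 2157 lower, so that higher genes made up 24.7% instead of 52.1% of them. All changes below are relative to the TMM scale. For each functional list below, the shares of all tested genes, 12.8% higher and 11.8% lower, are the background.

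**Figure D1:**
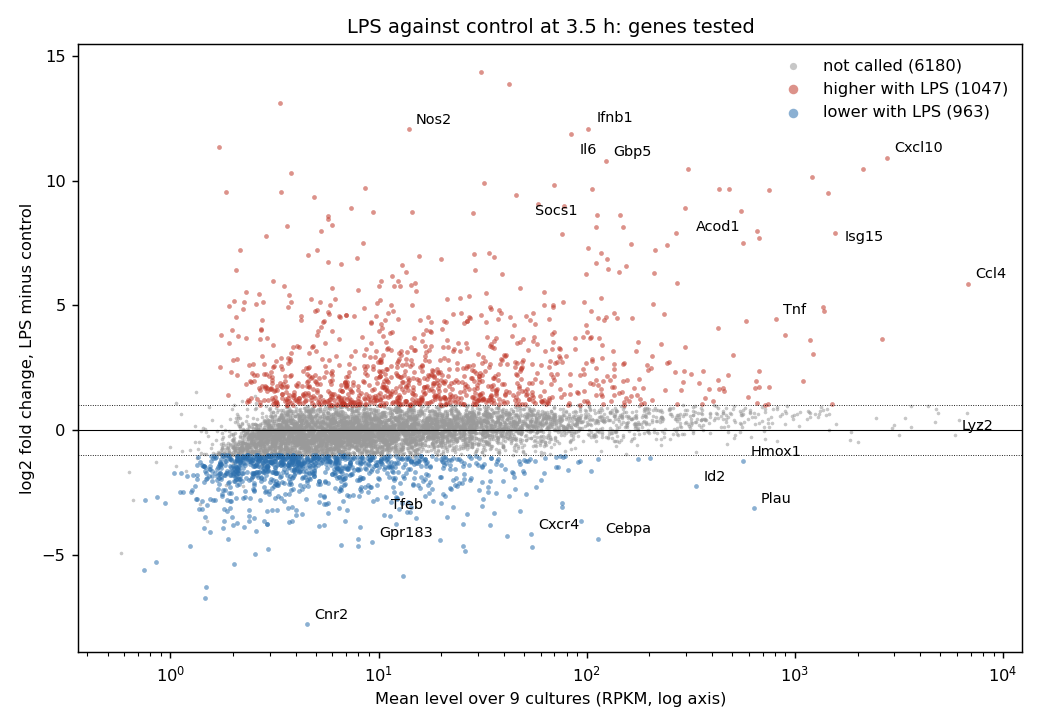
Each point is 1 tested gene, with its mean level over the 9 cultures (RPKM, log axis) across and the log2 fold change of LPS against control cultures at 3.5 h up; colours mark genes called higher, called lower or not called. Rises reach further from 0 than falls, with 121 genes above 5 and 7 genes under −5 among the called genes, and Ccl4 at the far right is the most abundant of the labelled genes.

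Some genes passed from near silence to a high level. In 30 genes every control culture was under 1 TPM and every LPS-treated culture reached 10 TPM, whereas 8 genes made the reverse passage, among them Cnr2, Per1 and Usp2. The median control level was 5.17 RPKM for genes called higher, 6.02 RPKM for genes called lower and 8.66 RPKM for all tested genes. Among called protein-coding genes, the 4 highest rises of mean TPM belonged to Ccl4, Cxcl10, Ifit1 and Ccl3, and the 4 deepest falls to Plau, Hmox1, Id2 and Adam8. Sdc4, a cell surface proteoglycan, and Marcksl1, an actin-regulating protein, were among the 10 largest rises, at 2940 ± 292 RPKM against 97.0 ± 30.8 RPKM and at 2403 ± 219 RPKM against 200 ± 34.8 RPKM with LPS and in control cultures. Throughout, means are given ± SD over 4 LPS-treated and 5 control cultures.

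Most cytokine genes that could be tested rose. Of 28 cytokine genes, 21 passed the filter of 10 TPM in at least 1 culture, and 18 of these were called higher, none lower and 3 not called (Csf1, Osm and Inhba). The other 7 stayed under the filter in every culture. Genes nearly silent in control cultures, such as Il6 and Il12b, passed it only through the LPS-treated cultures, so the share of rises partly follows from the filter. The same limit applies to the counts of the lists below. The median log2 fold change of the 21 genes was 6.47, beside −0.02 for all tested genes. Il6 (ENSMUSG00000025746, chr5:30013114-30019981, GRCm38), the gene of the acute-phase cytokine interleukin-6, was at 0.0580, 0.0480, 0.0253, 0.0551 and 0.0687 RPKM in the control cultures. With LPS it stood at 221, 129, 187 and 216 RPKM. All LPS-treated cultures were far above all controls, and the second of them was the lowest. The log2 fold change of Il6 was 11.87 ± 0.26 (SE, adjusted p = 1.03e-10).

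Tnf (ENSMUSG00000024401, chr17:35199381-35202007) was already transcribed in control cultures, at 83.6, 84.9, 60.5, 97.9 and 74.4 RPKM. LPS raised it to 1834, 1678, 1663 and 1716 RPKM, a log2 fold change of 4.45 ± 0.14 (SE, adjusted p = 6.45e-10). The LPS-treated cultures lay close together and well above the controls. Il1b, the gene of the inflammasome substrate pro-interleukin-1β, was at 0.397, 0.550, 0.458, 0.758 and 0.241 RPKM without LPS. It reached 497, 572, 857 and 834 RPKM with LPS (log2 fold change 10.48 ± 0.34, adjusted p = 8.41e-10). The groups were again fully separate, with the third and the fourth LPS-treated cultures above the other two. Il1a rose alongside, from 0.296 ± 0.109 RPKM to 239 ± 72.8 RPKM.

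Il10 and Il1rn, which restrain inflammation, rose in the same cultures. Il10, whose product restrains macrophage activation, was at 2.98, 3.62, 3.40, 2.03 and 4.08 RPKM in control cultures. It stood at 244, 273, 258 and 349 RPKM with LPS, with no overlap between the groups (log2 fold change 6.47 ± 0.22, adjusted p = 9.68e-10). Il1rn, the gene of the interleukin-1 receptor antagonist, was abundant before treatment and rose from 120 ± 16.0 RPKM to 560 ± 74.4 RPKM. Il27, of the interleukin-12 family, reached 1088 ± 167 RPKM from 1.34 ± 0.0566 RPKM. Il15, which sustains NK and memory T cells, reached 279 ± 38.9 RPKM from 2.42 ± 0.409 RPKM. In contrast, Csf1, the gene of the growth factor M-CSF itself, was at 66.6 ± 24.4 RPKM in control and 43.7 ± 7.62 RPKM in LPS-treated cultures, which overlapped (adjusted p = 0.0678).

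For cytokine genes that were nearly silent in control cultures the ratio of summed reads per summed scaled library size is given with its exact 95% interval, which covers counting error only. Ifnb1, the gene of interferon-β (chr4:88522025-88522774), had 11 reads over the 5 control cultures, at 0, 0.181, 0.0409, 0 and 0.0556 RPKM. It rose to 299, 258, 139 and 213 RPKM with LPS, a ratio of 4610 (2580 to 9230). No control culture came near the lowest LPS-treated culture, the third. Il12b, the shared subunit of interleukins 12 and 23, had 13 control reads and a ratio of 873 (510 to 1640). Il19, of the interleukin-10 family, had 5 control reads and a ratio of 747 (319 to 2300). Il33, an alarmin, had no read in any control culture and was at least 2140-fold higher with LPS, against a floor of 3 reads over the control group.

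Chemokine genes included the largest rise of mean TPM among called protein-coding genes. Of 20 tested, 17 were called higher and 1 lower, with a median log2 fold change of 4.73. Ccl4 (chr11:83662584-83664683), which draws in monocytes and T cells, was at 312, 394, 217, 200 and 178 RPKM in control cultures. It was at 17190, 12275, 15302 and 15326 RPKM with LPS (log2 fold change 5.87 ± 0.27, adjusted p = 9.72e-09). The lowest LPS-treated culture, the second, exceeded the highest control many times over. Ccl3 and Ccl5, chemokines of the same CC class, reached 5326 ± 587 RPKM from 431 ± 146 RPKM and 2701 ± 315 RPKM from 2.40 ± 0.948 RPKM.

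Ligands of CXCR3, which attract activated T cells, went from almost none to high levels. Cxcl10 (chr5:92346638-92348889) was at 4.59, 5.06, 1.46, 3.67 and 1.39 RPKM in control and 5717, 5867, 6979 and 6255 RPKM in LPS-treated cultures. The groups did not overlap, and the log2 fold change was 10.92 ± 0.51 (SE, adjusted p = 9.76e-09). Cxcl9, whose promoter is shown above, had 5 control reads and a ratio of 17000 (7300 to 52500). Cxcl11 had 3 control reads and a ratio of 26200 (8970 to 127000), and 41.7% of its exon length overlaps a neighbouring annotated gene, so its reads may be shared.

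Monocyte and neutrophil attractants rose as well. Ccl2 and Ccl7, ligands of CCR2, reached 1855 ± 459 RPKM from 133 ± 43.1 RPKM and 2985 ± 961 RPKM from 109 ± 45.0 RPKM. Cxcl1 and Cxcl2, ligands of CXCR2, had log2 fold changes of 5.27 ± 0.33 and 2.65 ± 0.27. Cxcl14, a chemokine made in resting tissue, was the one chemokine gene called lower. It fell from 46.2, 51.7, 67.0, 55.6 and 65.8 RPKM to 19.4, 18.7, 19.6 and 18.7 RPKM (log2 fold change −1.56 ± 0.12, adjusted p = 4.22e-07). All 4 LPS-treated cultures were below all controls and nearly equal to each other.

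Receptors for chemoattractants split in both directions. Of 14 tested, 5 were called higher (Fpr1, Fpr2, Ccrl2, Ccr3 and Ptafr) and 3 lower (Cxcr4, Cx3cr1 and Ccr2). Fpr2, a receptor of formylated bacterial peptides, rose to 31.4 ± 7.0 RPKM from 0.567 ± 0.187 RPKM, although 43.0% of its sequence in words of 31 letters occurs in other genes. Ccrl2, which presents chemerin, rose to 209 ± 18.4 RPKM from 11.6 ± 3.56 RPKM. Cxcr4 (chr1:128588199-128592293), which retains leukocytes in marrow through CXCL12, fell from 83.1, 106, 88.9, 97.5 and 88.6 RPKM to 5.50, 7.02, 3.58 and 4.03 RPKM. No culture of one group reached the other, and the log2 fold change was −4.18 ± 0.20 (SE, adjusted p = 1.44e-08). Cx3cr1, the fractalkine receptor, fell to 1.36 ± 0.319 RPKM from 8.79 ± 2.16 RPKM.

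**Figure D2:**
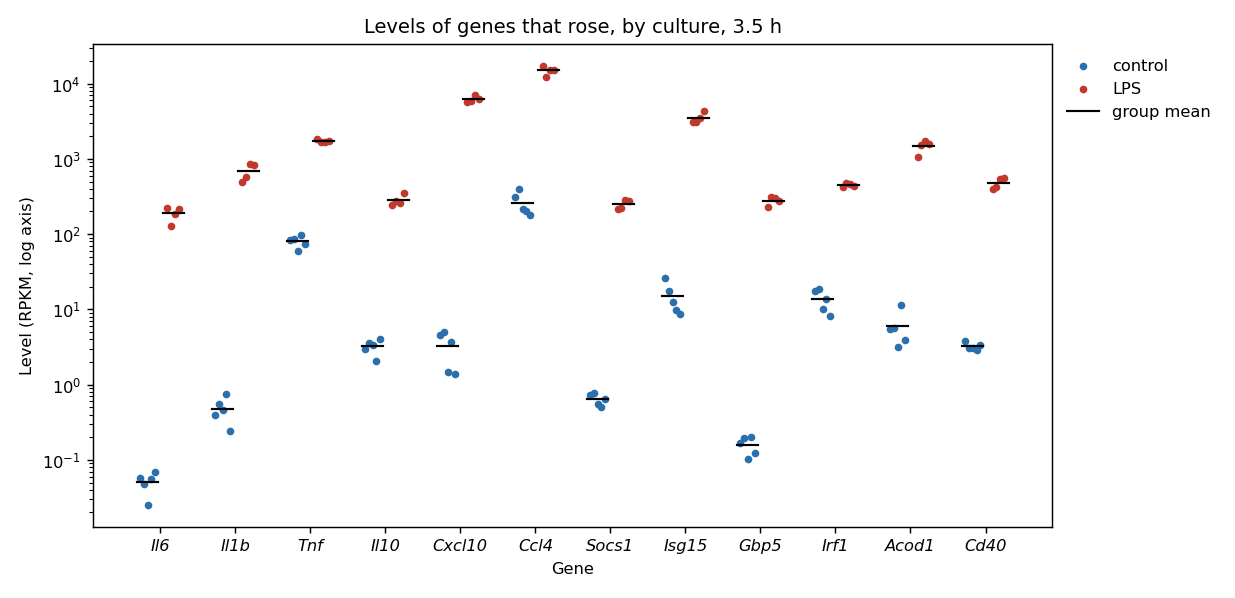
Level of 12 genes (RPKM, log axis) in each of the 5 control and 4 LPS-treated cultures at 3.5 h; points are cultures and black lines are group means. For all 12 genes every LPS-treated culture lies above every control culture, from Tnf at 60.5 to 97.9 against 1663 to 1834 RPKM to Il6 at 0.0253 to 0.0687 against 129 to 221 RPKM.

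NF-κB subunits and the inhibitors that shut the pathway down rose together. Of 29 tested genes of this group, 22 were called higher and none lower (median log2 fold change 2.17). Nfkbia, which encodes the inhibitor IκBα, was at 140, 143, 96.3, 139 and 102 RPKM in control and 806, 1112, 1012 and 1010 RPKM in LPS-treated cultures. The groups were separate, and the log2 fold change was 3.01 ± 0.16 (SE, adjusted p = 2.62e-08). The genes of all 5 NF-κB subunits were called, with log2 fold changes of 1.82 for Relb, 1.84 for Rela, 1.96 for Nfkb1, 2.33 for Rel and 3.26 for Nfkb2. Tnfaip3, which encodes the ubiquitin-editing enzyme A20, rose to 181 ± 29.7 RPKM from 14.2 ± 3.92 RPKM. Nfkbiz, a nuclear IκB that licenses secondary response genes such as Il6, rose to 80.0 ± 11.3 RPKM from 3.67 ± 0.740 RPKM. Traf1, an adaptor of TNF receptors, rose to 22.0 ± 2.51 RPKM from 0.595 ± 0.181 RPKM. Among the members not called were the kinase subunits Chuk, Ikbkb and Ikbkg and the adaptor Traf3, which stood at 6.43 ± 1.34 RPKM in control and 4.24 ± 0.614 RPKM in LPS-treated cultures.

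Immediate early transcription factors, known for a fast and brief peak after a stimulus, did not move in 1 direction at 3.5 h. Of 22 tested, 5 were called higher and 5 lower. Junb, an AP-1 subunit, Klf6, Mafk, Ier3 and Nr4a3 were higher, with Klf6 at 219 ± 15.7 RPKM against 49.5 ± 2.98 RPKM. Myc (chr15:61985391-61990374), the growth-linked factor, was at 20.6, 18.5, 20.8, 26.1 and 28.3 RPKM in control and 3.43, 2.17, 1.47 and 2.24 RPKM in LPS-treated cultures. It was lower in all 4 (log2 fold change −3.27 ± 0.23, adjusted p = 3.12e-07). Egr2 and Nr4a1 fell by 3.10 and by 3.21 on the log2 scale, and Fos and Klf10 by 1.74 and by 1.68.

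MAP kinase phosphatases and regulators of mRNA decay also divided by member, with 9 of 19 called higher and 5 lower. Dusp2, a nuclear phosphatase of immune cells, rose to 216 ± 16.3 RPKM from 16.5 ± 2.72 RPKM, and Dusp14 rose by 5.15 ± 0.33 on the log2 scale. In contrast, Dusp6, the cytoplasmic ERK phosphatase, fell from 32.7, 30.8, 32.4, 32.6 and 34.1 RPKM to 5.30, 3.71, 3.46 and 4.61 RPKM. Each LPS-treated culture was below each control culture (log2 fold change −2.91 ± 0.13, adjusted p = 7.12e-09). Dusp4 and Dusp7, which also act on ERK, fell by 2.28 and by 1.56, while Dusp1 was at 49.4 ± 11.0 and 75.8 ± 11.4 RPKM and was not called. Of the decay factors, Zfp36 (tristetraprolin), which binds AU-rich elements of the Tnf mRNA, rose to 372 ± 19.2 RPKM from 67.3 ± 20.3 RPKM, and Zc3h12a (Regnase-1) to 52.1 ± 9.67 RPKM from 12.9 ± 2.15 RPKM. Arid5a, which protects Il6 mRNA from Regnase-1, rose by 4.89 ± 0.20 on the log2 scale. The relatives of Zfp36, Zfp36l1 and Zfp36l2, fell instead, the latter to 13.5 ± 3.07 RPKM from 80.8 ± 23 RPKM. Of the exon length of Zfp36l1, 55.9% overlaps a neighbouring annotated gene, so its reads may be shared.

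Socs1 and Socs3, inhibitors of cytokine receptor signalling, rose, in a list that moved both ways. Of 28 tested SOCS proteins and cytokine receptors, 11 were called higher, 3 lower and 14 not at all (median 0.54). The share called lower was near the 11.8% of all tested genes. Socs1 (chr16:10782240-10785536), which blocks JAK kinases, was at 0.739, 0.781, 0.559, 0.502 and 0.639 RPKM in control cultures. With LPS it was at 218, 223, 286 and 277 RPKM, so that the groups were far apart (log2 fold change 8.63 ± 0.19, adjusted p = 1.03e-10). Socs3, which acts on receptors that use gp130, rose to 598 ± 140 RPKM from 2.55 ± 1.33 RPKM. Il10ra and Il15ra, receptor chains for 2 of the induced cytokines, rose to 133 ± 6.54 RPKM from 20.8 ± 1.31 RPKM and to 27.2 ± 4.90 RPKM from 0.429 ± 0.123 RPKM. Tgfbr1 and Il6ra fell by 1.40 and by 1.25 on the log2 scale. Csf1r, the M-CSF receptor, stood at 268 ± 50.7 RPKM in control and 176 ± 31 RPKM in LPS-treated cultures and was not called.

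The interferon arm rose. All 30 type I interferon response genes were called higher (median log2 fold change 4.69), as were 14 of 15 tested guanylate-binding proteins and immunity-related GTPases (median 6.88) and 12 of 17 interferon regulatory factors, STATs and JAKs (median 2.21), and none in these lists was lower. Ifit1, which binds viral RNA without a host cap, was at 4.67, 3.71, 2.42, 4.53 and 1.76 RPKM in control cultures. It reached 5432, 3703, 5232 and 4822 RPKM with LPS (log2 fold change 10.47 ± 0.37, adjusted p = 1.40e-09). Isg15, a ubiquitin-like modifier, was at 25.7, 17.4, 12.5, 9.88 and 8.78 RPKM without and 3137, 3065, 3494 and 4305 RPKM with LPS (7.89 ± 0.37, adjusted p = 1.01e-08). Both genes were separate between the groups, and the ISRE-type promoters shown above belong to them. Rsad2 (viperin) and Cmpk2, neighbours in the genome that act together on nucleotides, reached 3248 ± 326 RPKM and 1694 ± 230 RPKM. Usp18, which removes ISG15 and dampens the interferon receptor, reached 227 ± 38.8 RPKM from 1.45 ± 0.612 RPKM.

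GTPases that attack the vacuoles of intracellular microbes rose from low control levels. Gbp5 (chr3:142493978-142522344) was at 0.170, 0.196, 0.102, 0.204 and 0.123 RPKM in control and 227, 307, 304 and 274 RPKM in LPS-treated cultures. No values overlapped, and the log2 fold change was 10.79 ± 0.25 (SE, adjusted p = 1.09e-10). Iigp1 and Gbp4 rose by 9.90 ± 0.27 and 9.57 ± 0.41, and Igtp and Irgm1, with 3.98 ± 0.177 and 6.63 ± 0.926 RPKM in control cultures, by 6.33 ± 0.09 and 5.29 ± 0.14.

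Most factors that transmit interferon signals rose, but Irf3 did not. Irf1 was at 17.8, 18.4, 10.2, 13.9 and 8.22 RPKM without and 426, 477, 464 and 432 RPKM with LPS, with separate groups (log2 fold change 5.06 ± 0.25, adjusted p = 1.58e-08). Irf7, the amplifier of interferon genes, rose to 237 ± 35.9 RPKM from 22.4 ± 11.7 RPKM, and Irf8, a macrophage lineage factor, to 143 ± 26.8 RPKM from 22.0 ± 4.02 RPKM. Stat2 and Irf9, which carry the signal of the interferon receptor to the nucleus, rose by 3.61 and 2.35 on the log2 scale. Irf3, which TRIF activates without new transcription, stood at 10.1 ± 0.640 RPKM in control and 8.50 ± 0.649 RPKM in LPS-treated cultures and was not called (log2 fold change −0.23, adjusted p = 0.0387).

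Components of LPS recognition did not move as 1 block. Of 24 tested Toll-like receptors and proximal signalling genes, 8 were called higher and 2 lower (Tlr13 and Tab1), and 4 were lower without the second LPS-treated culture. With all cultures, the share called lower was under the 11.8% of all tested genes. Tlr4 (chr4:66827584-66930284) itself was at 4.65, 5.40, 5.70, 7.82 and 6.88 RPKM in control and 2.91, 4.64, 3.69 and 4.36 RPKM in LPS-treated cultures. Every LPS-treated culture was below the lowest control culture, the second by very little, and the log2 fold change of −0.62 ± 0.17 (SE, adjusted p = 8.29e-03) did not reach the fold threshold. Its partner Cd14 rose to 1106 ± 133 RPKM from 288 ± 36.1 RPKM, and the adaptor Myd88 to 113 ± 13.9 RPKM from 18.5 ± 0.613 RPKM. Tlr2, for bacterial lipoproteins, and Tlr3, for double-stranded RNA, rose by 2.32 ± 0.15 and 4.29 ± 0.11. Tlr13, which detects bacterial ribosomal RNA, fell to 17.6 ± 3.69 RPKM from 66.5 ± 14 RPKM.

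Cytosolic sensors rose more uniformly, with 14 of 19 tested called higher and none lower (median 2.69). Ifih1 (MDA5), a sensor of long viral RNA, reached 220 ± 29.3 RPKM from 2.90 ± 0.62 RPKM. Nod1 and Nod2, sensors of bacterial cell wall fragments, rose by 4.78 ± 0.19 and 4.59 ± 0.21. Casp4, which encodes murine caspase-11, the cytosolic LPS receptor, rose to 70.4 ± 5.51 RPKM from 6.44 ± 0.523 RPKM, and Casp1 to 248 ± 28.9 RPKM from 46.2 ± 2.90 RPKM. Nlrp3 rose by 1.48 ± 0.23. Nlrc4 and Mavs were not called, at log2 fold changes of −0.86 and −0.79.

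Surface molecules that instruct T cells were higher, with 14 of 19 tested called higher and 2 lower. Cd40 (chr2:165055627-165072948) was at 3.83, 3.06, 3.08, 2.92 and 3.34 RPKM in control and 394, 426, 533 and 550 RPKM in LPS-treated cultures, with wide separation (log2 fold change 7.21 ± 0.16, adjusted p = 1.05e-10). The early activation marker Cd69 reached 156 ± 23.8 RPKM from 0.173 ± 0.0861 RPKM. Cd274, which encodes the inhibitory ligand PD-L1, rose to 242 ± 36.3 RPKM from 10.8 ± 2.56 RPKM, and Cd86, which costimulates, to 55.2 ± 9.91 RPKM from 12.2 ± 2.66 RPKM. The 2 members that fell, Vsir (VISTA) and Cd276 (B7-H3), belong to the B7 family and are known mainly as inhibitors of T cells. Vsir fell to 47.0 ± 3.87 RPKM from 102 ± 8.27 RPKM. Of 18 tested genes of MHC class I processing, 13 were higher and none lower (median 1.92), and the peptide transporter gene Tap1 rose to 109 ± 15.5 RPKM from 4.59 ± 0.915 RPKM. Of 6 tested MHC class II genes only H2-Ab1 was called higher, at 1.06 ± 0.24 (SE, adjusted p = 0.00244). It lost its call without the first control culture or without the third or the fourth LPS-treated culture, and 3 were higher without the first LPS-treated culture.

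Genes of antimicrobial metabolism rose at particular steps. Of 15 tested genes of arginine, nitric oxide and itaconate metabolism, 8 were called higher and none lower (median 1.67). Acod1 (chr14:103046977-103056573), which makes itaconate from a TCA cycle intermediate, was at 5.52, 5.59, 3.11, 11.5 and 3.93 RPKM in control and 1069, 1532, 1723 and 1592 RPKM in LPS-treated cultures. The first LPS-treated culture was the lowest and was still far above every control (log2 fold change 7.99 ± 0.41, adjusted p = 2.29e-08). Nos2, the inducible nitric oxide synthase, had 9 control reads and stood at 24.2, 38.3, 29.8 and 33.4 RPKM with LPS, a ratio of 4580 (2410 to 10000). The genes that feed it rose too: Slc7a2, an arginine transporter, by 4.54 ± 0.21, Ass1, which recycles citrulline, by 2.65 ± 0.24, and Gch1, for its cofactor tetrahydrobiopterin, by 2.11 ± 0.12. Of the words of 31 letters of Ass1, 43.1% occur in other genes. Ptgs2 (COX-2) and Ptges, successive enzymes of prostaglandin E2 synthesis, rose to 94.1 ± 7.56 RPKM from 5.17 ± 3.11 RPKM and to 14.9 ± 1.31 RPKM from 0.608 ± 0.111 RPKM, and only Pla2g4a was called beside them in a list of 14.

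The TCA cycle and the respiratory chain showed no calls, whereas some genes of glycolysis and of the hypoxia response were called. None of 21 TCA cycle and none of 25 respiratory chain genes was called in either direction with edgeR, against 24.5% of all tested genes. Below the fold threshold, 23 of the 25 respiratory chain genes had a positive log2 fold change (median 0.46), but the median was −0.06 with library size alone. Of 22 glycolysis genes, 3 were higher and 2 lower, a share near that of all tested genes. Slc2a6, a hexose transporter of inflammatory macrophages, rose to 137 ± 23.6 RPKM from 3.01 ± 0.458 RPKM, and the hexokinases Hk2 and Hk3 by 1.82 ± 0.25 and 1.17 ± 0.11, whereas Pfkfb4 and Pgam1 fell by 1.77 and by 1.23, and 37.1% of the words of 31 letters of Pgam1 occur in other genes. Of 15 hypoxia-linked genes, also a share near the background, Ndrg1 was higher and Vegfa and Kdm3a were lower. Vegfa, the angiogenic factor, fell to 8.31 ± 2.29 RPKM from 37.1 ± 7.43 RPKM. None of 28 cytosolic ribosomal protein genes was called, but all 28 had a positive log2 fold change, with a median of 0.56. Their summed level was 8708 to 13754 RPKM in control and 14298 to 18340 RPKM in LPS-treated cultures. With library size alone their median was 0.04, so this small shift depends on the scaling.

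Sterol genes moved mainly downward. Of 20 genes of cholesterol synthesis and uptake, 7 were called lower and none higher (median −0.54), among them Sqle (squalene epoxidase), which fell to 3.18 ± 0.218 RPKM from 10.9 ± 1.6 RPKM. An oxysterol enzyme and an oxysterol receptor moved in opposite directions. Ch25h, which makes 25-hydroxycholesterol, was at 7.54, 6.62, 5.53, 6.67 and 6.26 RPKM in control and 128, 103, 162 and 165 RPKM in LPS-treated cultures, all of them higher (log2 fold change 4.44 ± 0.16, adjusted p = 1.51e-09). Gpr183 (EBI2; chr14:121952551-121965195), the migration receptor for its dihydroxylated product, fell from 17.6, 20.2, 14.8, 14.6 and 14 RPKM to 0.844, 0.886, 0.468 and 0.619 RPKM. All LPS-treated cultures were lower (log2 fold change −4.50 ± 0.22, adjusted p = 1.19e-08). Nr1h3 (LXRα), the nuclear receptor for oxysterols, and Npc1, which exports cholesterol from lysosomes, fell by 1.16 and by 1.24. Ch25h was the only gene called higher of 15 in the efflux and oxysterol list, where 5 were lower, and 2 were higher without the second or the third control culture or the second LPS-treated culture.

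**Figure D3:**
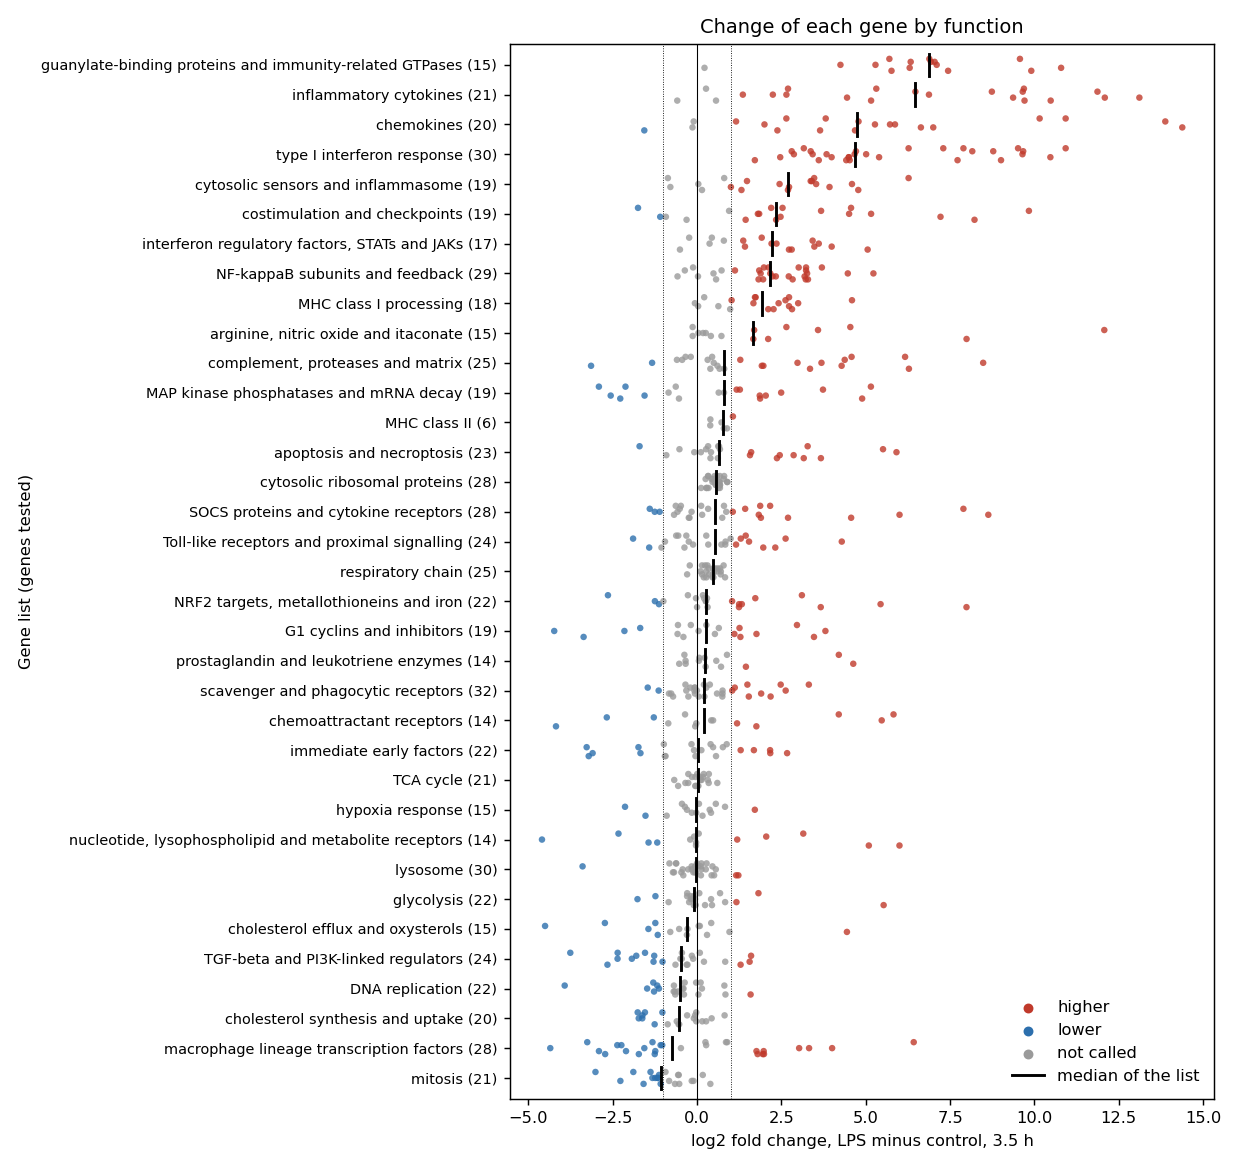
Log2 fold change of LPS against control cultures at 3.5 h for each tested gene of the functional lists; each point is 1 gene, coloured by its call, and the black line is the median of the list. The 30 type I interferon response genes all lie on the higher side, the respiratory chain genes lie between −0.29 and 0.83, and the mitosis list has a median of −1.08.

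Receptors for lipids and nucleotides held several of the deepest falls. Cnr2 (chr4:135895394-135920207), the cannabinoid receptor of leukocytes, was at 6.32, 6.32, 8.98, 9.45 and 9.65 RPKM in control and 0.0322, 0.0364, 0.0326 and 0.0408 RPKM in LPS-treated cultures. It was almost gone in all 4, and its log2 fold change of −7.80 ± 0.23 (SE, adjusted p = 5.45e-10) was the deepest among protein-coding genes with separate groups whose lower group held at least 10 reads. Lpar6, a lysophosphatidic acid receptor, was at 12.5, 11.6, 12.0, 11.0 and 10.8 RPKM without and 0.579, 0.429, 0.47 and 0.411 RPKM with LPS, again separate (−4.60 ± 0.13, adjusted p = 3.17e-10). S1pr1, the receptor that lets cells leave tissue along sphingosine 1-phosphate, fell to 6.69 ± 1.89 RPKM from 34.1 ± 4.35 RPKM. The list of nucleotide, lysophospholipid and metabolite receptors holds Lpar6 but not Cnr2, and of its 14 tested genes 5 were higher and 4 lower. In this list, Adora2a, an anti-inflammatory adenosine receptor, and Hcar2, a receptor of ketone bodies and niacin, rose by 6.0 ± 0.21 and 5.09 ± 0.38.

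Among 32 scavenger and phagocytic receptors, 9 were called higher and 2 lower, the latter a share under the 11.8% of all tested genes. Clec4e (Mincle), which binds mycobacterial glycolipid, rose to 147 ± 18 RPKM from 15 ± 4.79 RPKM, and the IgG receptors Fcgr1 and Fcgr4 rose by 2.48 ± 0.13 and 2.18 ± 0.11. Stab1 and Lrp1, clearance receptors, fell to 36.2 ± 3.93 RPKM from 101 ± 23.2 RPKM and to 20.5 ± 3.68 RPKM from 45.9 ± 10.2 RPKM. Of 30 lysosomal genes only 3 were called. One of these was Tfeb (chr17:47737030-47792419), the master regulator of lysosome genes, at 16.8, 19.2, 19.3, 14.8 and 18.4 RPKM in control and 1.59, 1.75, 1.70 and 1.62 RPKM in LPS-treated cultures. All LPS-treated cultures were lower (log2 fold change −3.39 ± 0.11, adjusted p = 8.34e-10), while its relatives Mitf and Tfec rose by 1.16 ± 0.12 and 3.03 ± 0.13.

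Transcription factors of the macrophage lineage fell more often than they rose. Of 28 tested, 14 were called lower and 9 higher (median −0.76), beside 11.8% lower and 12.8% higher among all tested genes. Cebpa (chr7:35119293-35121928), required to form myeloid progenitors, was at 181, 214, 214, 175 and 196 RPKM in control and 9.16, 10.6, 8.65 and 9.51 RPKM in LPS-treated cultures. The groups were far apart (log2 fold change −4.35 ± 0.12, adjusted p = 2.50e-10).

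The inhibitors of basic helix-loop-helix factors fell together. Id2 was at 523, 586, 511, 447 and 526 RPKM in control and 99.3, 89.4, 103 and 141 RPKM in LPS-treated cultures, which did not overlap (log2 fold change −2.24 ± 0.15, adjusted p = 1.91e-07). Id1 fell to 16.4 ± 6.41 RPKM from 124 ± 24.5 RPKM and Id3 to 27.2 ± 8.05 RPKM from 90.8 ± 16.3 RPKM. Bhlhe40 and Bhlhe41, repressors needed for macrophage self-renewal, fell by 2.36 and by 2.72. Those that rose in this list include Batf2 and Batf, partners of interferon regulatory factors, by 6.42 ± 0.18 and 4.00 ± 0.17, and Nfil3 by 3.32 ± 0.14. Spi1 (PU.1), the defining factor of the lineage, was not called, at a log2 fold change of 0.27.

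**Figure D4:**
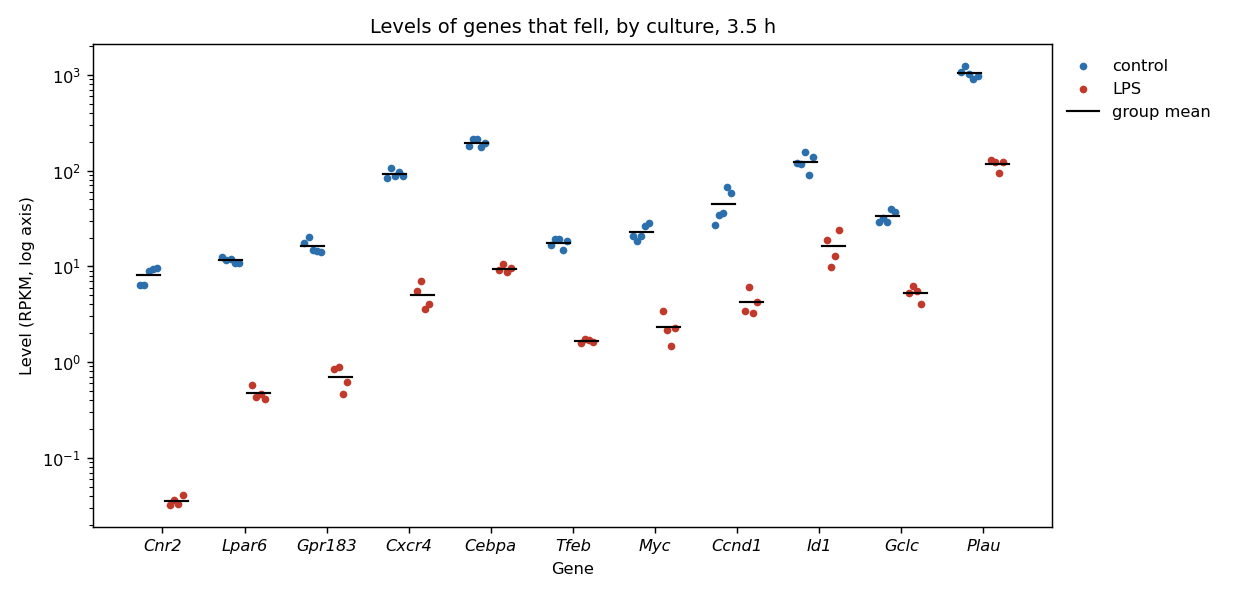
Level of 11 genes (RPKM, log axis) in each of the 5 control and 4 LPS-treated cultures at 3.5 h; points are cultures and black lines are group means. For all 11 genes every LPS-treated culture lies below every control culture, from Plau at 903 to 1241 against 93.7 to 129 RPKM to Cnr2 at 6.32 to 9.65 against 0.0322 to 0.0408 RPKM.

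Regulators of TGF-β and phosphoinositide signalling fell more often than they rose, with 10 of 24 called lower and 3 higher. Smad6 and Smad7, the inhibitory SMADs that bone morphogenetic proteins and TGF-β induce, fell to 2.00 ± 0.296 RPKM from 12.8 ± 0.939 RPKM and to 1.96 ± 0.212 RPKM from 10.2 ± 0.810 RPKM. The SMAD corepressor Ski fell by 2.35. Inpp5d, which encodes the lipid phosphatase SHIP1, a brake on TLR4 signalling, fell to 9.10 ± 1.22 RPKM from 35.3 ± 4.76 RPKM. Irf2bp2, a repressor of inflammatory macrophage genes, was one of the 10 largest falls, at 44.6 ± 3.12 RPKM in control and 1.77 ± 0.338 RPKM in LPS-treated cultures.

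Cell cycle genes were lower mainly at mitosis, and those of G1 moved both ways. Of 19 tested G1 cyclins and inhibitors, 7 were called higher and 4 lower (median 0.28). Ccnd1 (cyclin D1, chr7:144929931-144939925) was at 26.9, 34.7, 35.8, 67.4 and 58.3 RPKM in control and 3.45, 6.06, 3.22 and 4.27 RPKM in LPS-treated cultures. The fourth and the fifth control cultures were the highest, and no LPS-treated culture reached the lowest control (log2 fold change −3.36 ± 0.31, adjusted p = 2.69e-06). Cdkn1a (p21), which inhibits cyclin-dependent kinases, rose to 459 ± 57.6 RPKM from 42.2 ± 5.92 RPKM, and Ccnd2 rose by 3.80 ± 0.27. Plk3, a stress-linked kinase, fell by 4.23. Of 22 DNA replication genes, 6 were lower and 1, Ccne1, was higher (median −0.50), and of 21 mitosis genes 11 were lower and none higher (median −1.08). The summed level of the DNA replication list was nevertheless higher with LPS, at 471 to 573 RPKM against 362 to 466 RPKM in control cultures. That of the mitosis list was 122 to 176 RPKM with LPS and 161 to 237 RPKM in control cultures, which overlapped. Kif20a, a kinesin of the central spindle, fell to 0.298 ± 0.164 RPKM from 2.46 ± 1.04 RPKM, while Mki67, a general proliferation marker, was not called at a log2 fold change of 0.17. Of the exon length of Kif20a and Ccnd1, 29.3% and 23.4% overlap a neighbouring annotated gene.

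Genes of antioxidant defence and iron handling were called in both directions. Of 22 NRF2 targets, metallothioneins and iron genes, 9 were higher and 3 lower, beside 12.8% and 11.8% of all tested genes. The share called lower was thus near that of all tested genes. Hmox1 (heme oxygenase-1) was at 673, 850, 793, 698 and 807 RPKM in control and 304, 336, 309 and 319 RPKM in LPS-treated cultures, all of them lower (log2 fold change −1.25 ± 0.10, adjusted p = 7.82e-07). Gclc and Gclm, the subunits of the enzyme that limits glutathione synthesis, fell by 2.64 and by 1.13, and so did Nfe2l2, the gene of NRF2, by 1.25. The cystine transporter gene Slc7a11 rose by 3.11 ± 0.16 and Mt1, a metallothionein, to 1220 ± 225 RPKM from 373 ± 61.5 RPKM. Hamp, which encodes the iron hormone hepcidin, had 5 control reads and a ratio of 287 (123 to 887), with 33.7% of its words shared with other genes.

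Regulators of cell death were called higher more often than lower, with 10 of 23 higher, 1 lower and 12 not called. Bcl2a1d, Bcl2a1b and Bcl2a1a, copies of an NF-κB-dependent survival gene, had log2 fold changes of 5.91, 3.16 and 5.51, but 89.1%, 88.8% and 79.6% of their words of 31 letters occur in other genes, so reads may have been divided among the copies. Cflar (c-FLIP), which blocks caspase-8, rose to 74.2 ± 9.65 RPKM from 10.4 ± 2.26 RPKM. Mlkl, the executor of necroptosis, rose to 52.8 ± 4.68 RPKM from 5.53 ± 0.597 RPKM, and the death receptor gene Fas by 2.37 ± 0.15. Bcl2l1 (BCL-XL) was the member that fell, from 61.4, 68.4, 74.9, 53.3 and 62.1 RPKM to 20.4, 17.3, 19.8 and 20.2 RPKM. Every LPS-treated culture was under every control culture (log2 fold change −1.70 ± 0.11, adjusted p = 1.92e-07).

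Proteases and acute-phase genes included the deepest fall in mean TPM among called protein-coding genes. Plau (chr14:20836660-20843385), which encodes urokinase, was at 1083, 1241, 1023, 903 and 979 RPKM in control and 129, 122, 93.7 and 123 RPKM in LPS-treated cultures. The groups were separate (log2 fold change −3.14 ± 0.15, adjusted p = 9.14e-09). In the same list of 25, 12 genes were higher and 2 lower. Mmp13, a collagenase, rose to 1236 ± 119 RPKM from 60.5 ± 5.07 RPKM, Saa3, an acute-phase protein, to 86.7 ± 27.5 RPKM from 1.13 ± 0.892 RPKM, and the complement gene C3 to 54.4 ± 12.1 RPKM from 2.84 ± 1.30 RPKM. Other called genes among the deepest falls, by mean TPM or, for Cd300lb, by fold, were Gdf15, a stress cytokine, at 160 ± 44.4 against 12.5 ± 1.82 RPKM, Rab7b, a GTPase that sends TLR4 to lysosomes, at 126 ± 15.3 against 14.8 ± 2.53 RPKM, and Cd300lb, an activating receptor, at 95 ± 14.9 against 3.58 ± 0.852 RPKM in control and LPS-treated cultures.

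Several gene families of the response lie side by side in the genome. There were 26 runs of at least 4 neighbouring tested genes called in 1 direction, 22 of them higher and 4 lower. The longest held 15 genes from Aim2 to Ifi205 on chromosome 1 (173350879 to 174031810, median log2 fold change 5.77). It covers a family that includes sensors of cytosolic DNA, beside Gm44339, Gm18445 and Ifi203-ps. The CXCR3 ligands Cxcl9, Cxcl10 and Cxcl11 formed a run with Nup54 on chromosome 5 (92321347 to 92435219), Ccl2, Ccl7, Ccl12 and Ccl8 formed one on chromosome 11 (82035571 to 82116799), and 5 Ifit genes formed one on chromosome 19 (34550694 to 34650009). Psmb9, Tap1, Psmb8 and Tap2, which cut and carry MHC class I peptides, lay together with H2-Ab1 on chromosome 17 (34181987 to 34269419). One of the 4 lower runs, on chromosome 4 (46604390 to 47474333), included Tgfbr1. Genes called lower had a median of 10 exons and 4838 bases of exon, genes called higher 8 exons and 4054 bases, and genes not called 9 exons and 4053 bases.

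Promoter letters differed in share between the called groups. A RefSeq window from 250 bases before to 50 bases after the start was found for 6263 of 7769 tested protein-coding genes. ISRE-type letters stood in 16.0% of the windows of genes called higher, in 5.27% of those called lower and in 7.73% of all. NF-κB-type letters stood in 9.60%, 4.72% and 6.34%. For the AP-1 letters (TGAGTCA or TGACTCA) the shares were 5.84%, 3.74% and 3.62%, for the cyclic AMP response element (TGACGTCA) 2.33%, 2.22% and 3.27%, and for the E-box (CACGTG) 9.21%, 11.8% and 11.2%. By function, 8 of 10 windows of guanylate-binding proteins and immunity-related GTPases and 13 of 21 of the type I interferon response held ISRE-type letters. They also stood in lists with no called gene, in 6 of 21 windows of cytosolic ribosomal proteins and 4 of 18 of the respiratory chain. NF-κB-type letters stood in 10 of 24 windows of NF-κB feedback genes, in 6 of 13 of chemokines and in 4 of 16 of cytokines, and also in 3 of 18 of the TCA cycle, where no gene was called. None of 18 windows of lineage transcription factors held the ISRE-type letters.

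**Figure D5:**
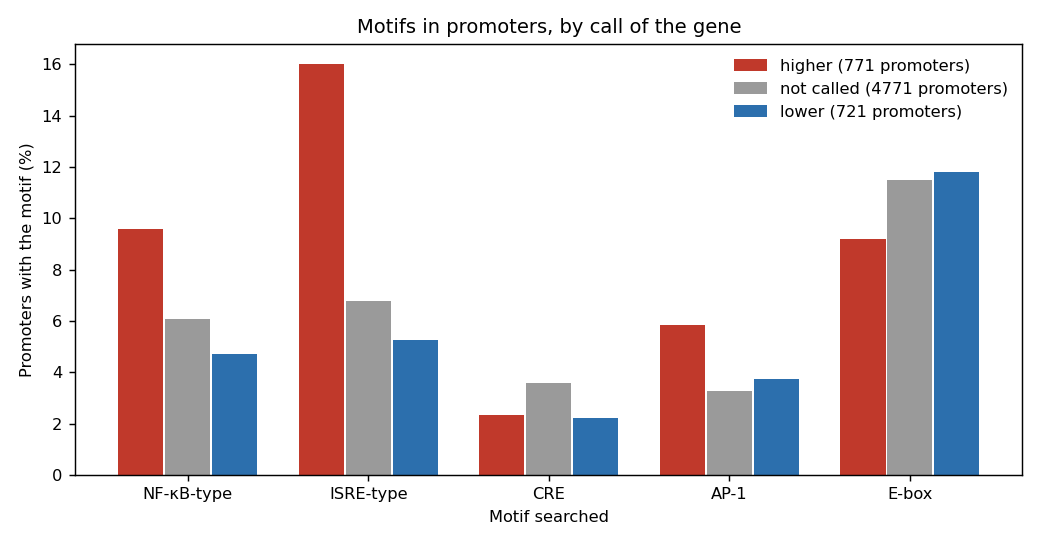
Percentage of promoter windows that hold each set of motif letters, for genes called higher, not called and called lower; bars start at 0. ISRE-type letters stand in 16.0% of windows of genes called higher and 5.27% of those called lower, and NF-κB-type letters in 9.60% and 4.72%.

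To see where the early LPS response differed from that to VWF, LPS-treated cultures were compared directly with the 5 VWF-treated cultures at 3.5 h. Of 7500 tested genes, 503 were higher (6.71%) and 353 lower (4.71%) with LPS, and 340 and 751 with library size alone. This comparison uses the same LPS-treated cultures as that against control. The interferon arm stood higher with LPS, with 27 of 30 type I interferon response genes called higher and none lower (median 1.74) and 14 of 15 guanylate-binding proteins and immunity-related GTPases called higher (median 1.94). Ifnb1 was at 227 ± 68.5 RPKM with LPS and 5.25 ± 1.74 RPKM with VWF (n = 5), a log2 difference of 5.42 ± 0.30 (SE, adjusted p = 4.72e-07). Ifit1 was at 4797 ± 772 against 682 ± 247 RPKM, Cxcl9 at 95.4 ± 11.0 against 2.82 ± 0.50 RPKM and Nos2 at 31.4 ± 5.93 against 11.2 ± 2.26 RPKM, all called higher. Among 29 NF-κB genes 1 was higher and 1 lower (median 0.17).

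Of 21 tested inflammatory cytokines 11 were higher with LPS than with VWF and 1 was lower (median 1.63), and of 21 chemokines 11 were higher and 3 lower (median 1.25). Among the lower genes, Il12b was at 19.4 ± 5.64 against 55.4 ± 18.8 RPKM (log2 difference −1.53 ± 0.27, adjusted p = 0.000851), and Cxcl2 at 254 ± 27.3 against 551 ± 59.2 RPKM (−1.14 ± 0.11, adjusted p = 1.31e-05). Pdgfb, a growth factor for mesenchymal cells, was at 28.7 ± 4.50 against 219 ± 23.4 RPKM, and Gadd45a, a DNA damage gene, at 4.99 ± 0.540 against 39.6 ± 5.18 RPKM. The lineage factor gene Cebpa was at 9.48 ± 0.823 with LPS and 61.9 ± 3.30 RPKM with VWF (−2.73 ± 0.09, adjusted p = 2.99e-08), and Cxcr4 at 5.03 ± 1.56 and 19.1 ± 4.6 RPKM. Plau, at 117 ± 15.8 and 196 ± 41.5 RPKM, was not called.

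The size of the LPS effect at 16 h was set against that at 3.5 h through the interaction of treatment and time, which uses the 3.5 h cultures again together with 4 LPS-treated and 5 control cultures at 16 h. Of 8748 tested genes, 1177 (13.5%) had a higher and 1124 (12.8%) a lower log2 fold change at 16 h. Mitosis and DNA replication genes had mostly lower values at 16 h, with 20 of 22 and 21 of 27 called (medians −3.80 and −1.97). Ccnb2, a mitotic cyclin, was at 23.9 ± 1.58 RPKM with LPS and 27.0 ± 3.28 RPKM in control at 3.5 h, and at 0.627 ± 0.198 and 31.2 ± 4.96 RPKM at 16 h (interaction −5.43 ± 0.24, adjusted p = 5.19e-11). Socs1 had a smaller effect at 16 h, at 33.4 ± 4.63 against 0.358 ± 0.117 RPKM (interaction −2.05 ± 0.29, adjusted p = 1.89e-05). The effect on Cebpa was smaller at the later time, with 29.8 ± 4.34 RPKM with LPS and 97.4 ± 9.41 RPKM in control at 16 h, where the control level was also lower than at 3.5 h (interaction 2.69 ± 0.15, adjusted p = 4.57e-10). Arg1, the arginase that competes with nitric oxide synthase for arginine, was at 0.0580 ± 0.0259 RPKM with LPS at 3.5 h and 81.4 ± 37.1 RPKM at 16 h, with 0.154 ± 0.0764 and 0.373 ± 0.253 RPKM in control (interaction 9.18 ± 0.79, adjusted p = 6.93e-08). The interaction of Tnf, at −0.83 ± 0.23 (adjusted p = 0.00747), did not reach the fold threshold. Tnf was at 1723 ± 77.7 RPKM with LPS and 80.3 ± 13.8 RPKM in control at 3.5 h, and at 195 ± 36.3 and 16.5 ± 3.04 RPKM at 16 h, so both levels were lower at the later time.

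Of the genes named above, Ptafr, Nr4a3, Nlrp3, H2-Ab1, Pla2g4a, Hk3 and Mitf lost their call with library size alone, and Csf1, Traf3, Csf1r, Tlr4, Nlrc4 and Mavs were then called lower.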

How the data were processed

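RNAseq was done by the authors on 28 BMDM cultures as paired-end reads of 150 bases. Reads were mapped with STAR to GRCm38 (mm10), and the authors deposited raw counts for 54532 Ensembl genes. For these counts, the sources used here do not state the STAR version, the gene annotation, the use of strand or what was done with multimapping reads. No column was left without a sample.

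Groups and replicate numbers came from the labels. Names, exon lengths and coordinates came from GENCODE M21 (GRCm38), which was matched by Ensembl identifier and held an exon length for 30143 of 30159 genes with a count. Levels are RPKM computed here from the counts with TMM factors over all 28 cultures. As in the methods of the study, a gene was tested when it reached 10 TPM in at least 1 culture of a comparison. Groups were compared by the quasi-likelihood test of edgeR 4.0.16 (R 4.3.3) with TMM scaling and robust estimation, fitted on the groups compared, with Benjamini-Hochberg adjustment over all tested genes. A call needed an adjusted p under 0.05 and a log2 fold change of at least 1 in size. The study used DESeq2, here an alternative (DESeq2 1.42.0), with others of scaling, filter, fold threshold, samples in the fit, replicate block and each culture left out. Tested on simulated counts with 200 changed genes, the test of LPS against control recovered 100% at a log2 change of 1.5 over 8190 genes, with 0 false calls, and that of the interaction 91% over 8748 genes, with 11 false calls. The changed genes were drawn above a minimum mean count and balanced between rises and falls. The simulation held no scaling difference like that between the groups here, so it does not test how the calls depend on scaling.

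The genes named are those of functional lists written from textbook knowledge, the 10 protein-coding genes that rose most and the 10 that fell most (called, groups not overlapping, at least 10 reads in the lower group), the 10 called ones with the largest rise and fall of mean TPM, genes of runs of neighbours, and the 5 largest in each direction in the further comparisons. The members and lists were chosen with earlier results of these data known, and lists share genes. Ratios for genes with at most 13 control reads are of summed reads over summed scaled library sizes and carry exact Clopper-Pearson intervals. Shared sequence is the share of 31-letter words of a gene's exons found in other genes. Depth was between 41131209 and 63616318 reads per culture of the main comparison. Replicate cultures were compared pairwise and none was a duplicate of another. A few genes of the lists are not reported here by name.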

Additional observations from a re-analysis of the deposited data

Results flagged for a closer look

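In groups of 4 or 5 cultures, 16 of 519 gene and group combinations examined (3.08%) had 1 culture far from the others by Dixon's ratio, the gap to the nearest culture over the range of the group. Chance gives about 1 in 20. Control culture 4 was the highest in 7 of them, with ratios of 0.718 for Nfkb1, 0.856 for Dusp16, 0.729 for Tgfbr1, 0.735 for Cybb, 0.762 for Hk2, 0.786 for Cflar and 0.725 for C3. Control culture 2 was the highest for Vsir (0.73) and Gch1 (0.806), and control culture 3 the lowest for Tnfsf4 (0.748). Among LPS-treated cultures, culture 1 was the lowest for Rsad2 (0.847) and Hamp (0.941), culture 2 the highest for Vsir (0.864), culture 3 the highest for Nfe2l2 (0.861) and Usp2 (0.88), and culture 4 the highest for Ptgs2 (0.92). None of these genes changed its call when any 1 culture was left out.

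The LPS effect differed between 16 h and 3.5 h in the test of the interaction, on the log2 scale, by 9.18 for Arg1, 7.44 for the inhibitory receptor gene Cd300lf, 6.76 for Clic5, 6.54 for Kdr and 6.36 for C130050O18Rik. It was lower at 16 h for the mitotic genes Ccna2 (−5.57), Ccnb2 (−5.43) and Ube2c (−5.59), for Gprc5c (−6.00) and for the transporter gene Slco2b1 (−5.50). For genes of the lists the interaction was 2.69 for Cebpa, 1.43 for Cxcr4 and −2.05 for Socs1. Cxcr4 with LPS stood at 5.03 ± 1.56 RPKM at 3.5 h and 3.98 ± 0.592 RPKM at 16 h. Its control level was 92.7 ± 8.85 RPKM at 3.5 h and 27.8 ± 2.85 RPKM at 16 h, so the level with LPS did not recover.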

How the results depend on the processing

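With DESeq2, 1993 of the 2010 genes called for LPS against control were also called, and with library size alone 1671 were. No called gene turned its sign in any setting. The number of calls depended on the filter, the fold threshold and the scaling. With library size alone, 2157 genes were lower for LPS against control, 154 list genes were lower, and 751 genes were lower for LPS against VWF. With edgeR's filterByExpr in place of 10 TPM, calls numbered 3917 (1825 higher, 2092 lower) for LPS against control, 1776 (975 and 801) for LPS against VWF and 3790 (1866 and 1924) for the interaction. With no filter beyond 1 count they numbered 4542 (2141 and 2401), 1942 (1091 and 851) and 3613 (1801 and 1812). With no fold threshold they numbered 5384 (2606 and 2778), 3768 (1798 and 1970) and 4267 (2185 and 2082), and 169 list genes were lower. Tested against a fold of 2 with glmTreat, 599 genes were lower. The E-box share of lower genes was 9.29% with only the bases before the start. The cause of these differences was not tested, except that the looser filters test more genes.

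Leaving out 1 culture at a time gave 1863 to 2088 calls for LPS against control (1029 to 1079 higher, 816 to 1048 lower), 777 to 946 for LPS against VWF and 2104 to 2683 for the interaction. The 1863 calls with 816 lower came without control culture 4. That culture lay farthest from its group mean in the main comparison, with a root mean square deviation of 0.349 on the log2 scale. With the replicate number as a block, 1988, 784 and 2261 genes were called. Same-numbered control and LPS-treated cultures at 3.5 h had correlations of their deviations of 0.598, −0.304, 0.339 and −0.126. LPS-treated cultures 1 and 3 correlated best with the control culture of their own number, and cultures 2 and 4 with that of another number. The labels do not say what the numbers stand for, and so few cultures cannot settle whether they were paired. Genes with fewer than 14 control reads have ratios known only to the intervals given.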
